A study of Mus musculus with 11 samples.

Results

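The genes described here are 10 mouse genes of the pulmonary surfactant system, chosen by name from a fixed list of alveolar type 2 genes: Sftpa1, Sftpd, Sftpb, Sftpc, Napsa, Abca3, Lamp3, Slc34a2, Hc and Chil1. All 10 were found by symbol among the 23255 Ensembl genes of the deposited table, and all 10 passed the filter on low values (a mean of at least 1 over the libraries). Total RNA of C57BL/6 mice was depleted of ribosomal RNA and sequenced with strand kept in 11 libraries. The tissue label is lung, whereas the extraction protocol speaks of cells, so it is not settled whether whole tissue or cells taken from it were used, and every level and cell type list below carries that doubt. These were 3 of untreated mice (control), 3 of mice given naphthalene and 5 of mice given naphthalene and then osimertinib, which inhibits the EGF receptor kinase. No group with osimertinib alone was analysed here. The labels used here give no age, sex, dose, time or batch, and do not say whether replicates are separate mice, so p-values reflect only sample-to-sample spread, possibly technical.

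Alveolar type 2 cells make surfactant, the film of lipid and protein that keeps the alveoli open, and store it in lamellar bodies, secretory organelles related to lysosomes. The hydrophobic proteins SP-B and SP-C spread and stabilise the lipid film, while the collectins SP-A and SP-D bind lipids and microbes. Naphthalene is known for injuring the club cells of the airway, and the type 2 cell is a progenitor of the alveolar epithelium. In a bulk sample of either kind, fewer cells of a type and less RNA per cell cannot be told apart.

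The deposited values gave back 5045361 to 13009975 gene reads per library. One gene without a name in the annotation used here, ENSMUSG00000119584, took 43.9% to 60.3% of the reads of naphthalene 1, 2 and 3 and of osimertinib 2, and at most 0.0337% elsewhere. The naphthalene group and this high read share therefore cannot be told apart, except through osimertinib 2. On the first principal component of all genes (38.4% of the variance) osimertinib 3 lay far from the rest, with a score of −72.7. By the chi-square of reads per degree of freedom, osimertinib 2 differed more from osimertinib 1, 4 and 5 (347 to 401) than osimertinib 3 did (216 to 255). However, osimertinib 2 was the only osimertinib library with the high read share. The part of ENSMUSG00000119584 and of library depth in this distance was not tested, so it is no separate measure of the other genes. The 10 genes were deeply read all the same, with 366 reads or more for each gene in each library. The lowest count was that of Napsa in naphthalene 2.

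The start-site sequences of 4 of these genes are printed because these genes had unlike patterns. Sftpb had the narrowest range and Sftpa1 varied with Sftpc. Lamp3 and Slc34a2, with Chil1 (not printed), had the largest differences between naphthalene and control. The 250 bases before each start are from RefSeq (build GRCm38.p6, an earlier build than the GRCm39 that the submitters' processing notes name), written 5′ to 3′. Of the 10 genes, 7 matched a row of that table. Capitals mark matches on either strand to CTCAAG (a core of sites for NKX2-1, the lung epithelial regulator), TGTTTNC (sites of FOXA factors), TTNNGCAA (C/EBP sites) and TATAAA (the TATA box). No marked match overlapped another.
Sftpb, chr6:72304360-72304609, plus strand: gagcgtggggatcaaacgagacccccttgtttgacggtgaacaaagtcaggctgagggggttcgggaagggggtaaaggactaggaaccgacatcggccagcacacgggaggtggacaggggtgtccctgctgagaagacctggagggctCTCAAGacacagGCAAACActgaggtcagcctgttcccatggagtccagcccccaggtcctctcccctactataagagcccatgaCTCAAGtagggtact
Sftpa1, chr14:41131538-41131787, plus strand: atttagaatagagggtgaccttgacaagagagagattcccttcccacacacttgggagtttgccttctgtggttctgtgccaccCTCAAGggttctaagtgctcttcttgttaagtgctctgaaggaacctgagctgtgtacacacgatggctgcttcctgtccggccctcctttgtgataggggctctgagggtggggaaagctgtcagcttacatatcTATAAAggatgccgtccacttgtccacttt
Lamp3, chr16:19706366-19706615, minus strand: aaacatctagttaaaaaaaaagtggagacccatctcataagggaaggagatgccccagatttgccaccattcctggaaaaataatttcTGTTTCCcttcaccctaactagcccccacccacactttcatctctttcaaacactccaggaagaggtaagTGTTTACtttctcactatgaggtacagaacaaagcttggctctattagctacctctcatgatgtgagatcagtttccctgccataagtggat
Slc34a2, chr5:53049103-53049352, plus strand: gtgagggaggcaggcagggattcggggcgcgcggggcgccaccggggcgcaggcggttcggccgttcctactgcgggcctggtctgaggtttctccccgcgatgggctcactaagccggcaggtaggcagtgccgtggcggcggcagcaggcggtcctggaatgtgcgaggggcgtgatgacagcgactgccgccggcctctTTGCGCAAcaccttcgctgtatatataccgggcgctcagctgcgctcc
The Sftpb stretch held CTCAAG at 2 places, 100 to 95 and 15 to 10 bases before the start, with GCAAACA between them. The Sftpa1 stretch held CTCAAG 166 to 161 bases before the start and TATAAA 30 to 25 bases before it. Lamp3 held TGTTTCC and TGTTTAC, and Slc34a2 held the palindrome TTGCGCAA 48 to 41 bases before the start. CTCAAG lay in 2 of the 7 stretches and in 13.6% of the 27025 stretches of the same length, TGTTTNC in 3 of 7 and 17.9%, TTNNGCAA in 1 of 7 and 9.55%, and TATAAA in 2 of 7 and 13.0%. These are matches of letters only.

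Per kilobase of transcript, Sftpc stood far above the other 9 in untreated lungs, at 8160 ± 624 (SD, n = 3) normalised units (CPM, the deposited scale) per kilobase, rank 2 of 16160 genes with a known length. Sftpb followed at 1202 ± 59.8 and Sftpa1 at 621 ± 54.6, then Slc34a2 at 388 ± 15.6. Chil1 (216 ± 12.8) and Sftpd (209 ± 23.7) were within their spread of each other, as were Hc (115 ± 10.3) and Lamp3 (104 ± 5.35). Napsa (91.1 ± 7.41) and Abca3 (68.9 ± 3.88) were lowest of the 10, though Abca3 still ranked 385 of 16160. By this per-length level Sftpc made up 73.0% ± 0.671 (SD, n = 3) of the summed level of the 10 genes in control, 74.7% ± 3.27 (SD, n = 3) in naphthalene and 74.0% ± 4.01 (SD, n = 5) in osimertinib. The share of Sftpb was 10.8% ± 0.320, 8.86% ± 1.17 and 9.11% ± 2.03 in the same order.

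On the deposited scale the group means of all 10 genes were lowest in untreated lungs and those of 9 were highest after osimertinib (Lamp3 was highest after naphthalene). Under equal library totals, all 10 lay lower in naphthalene than in control, as most genes did. There 15739 of 16549 genes were called lower and the median gene lay at −1.45. Equal totals count the reads of ENSMUSG00000119584, and with that gene left out of them the median gene lay at −0.47. Sftpb and Abca3 also lay lower in osimertinib than in control under equal library totals, with the median gene at −0.34. In osimertinib against control, as deposited, every one of the 10 had all 5 osimertinib libraries above all 3 control libraries, where 2.91% of the 16225 genes tested did. In naphthalene against control this held for 5 of 10 (Sftpd, Abca3, Lamp3, Slc34a2 and Chil1; 4.94% of all genes), and in osimertinib against naphthalene for 0 of 10 (3.82%). By limma's adjusted p on log2(value + 1), with a threshold of 0.05, 0 of the 10 genes were called in any of the 3 comparisons, where 0, 0 and 1 of all genes were (0%, 0% and 0.00616%), and edgeR on the recovered reads also called 0 of the 10. DESeq2 on those reads called 4 of the 10 in osimertinib against control (Hc, Chil1, Slc34a2 and Sftpd, all higher; 0.559% of the genes with an adjusted p, in either direction) and 0 in the others (0.108% for naphthalene against control, 0.231% for the 2 treated groups). At an unadjusted limma p under 0.05, 7 of 10 were higher in osimertinib against control (2.31% of all genes), 2 in naphthalene against control (1.73%) and 1 in osimertinib against naphthalene (7.08%). Each pair of comparisons shares the libraries of 1 group. The 10 genes and the other lists were chosen with earlier results of these data known. The counts beside the shares of all genes are therefore a description, not a test.

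**Figure D1:**
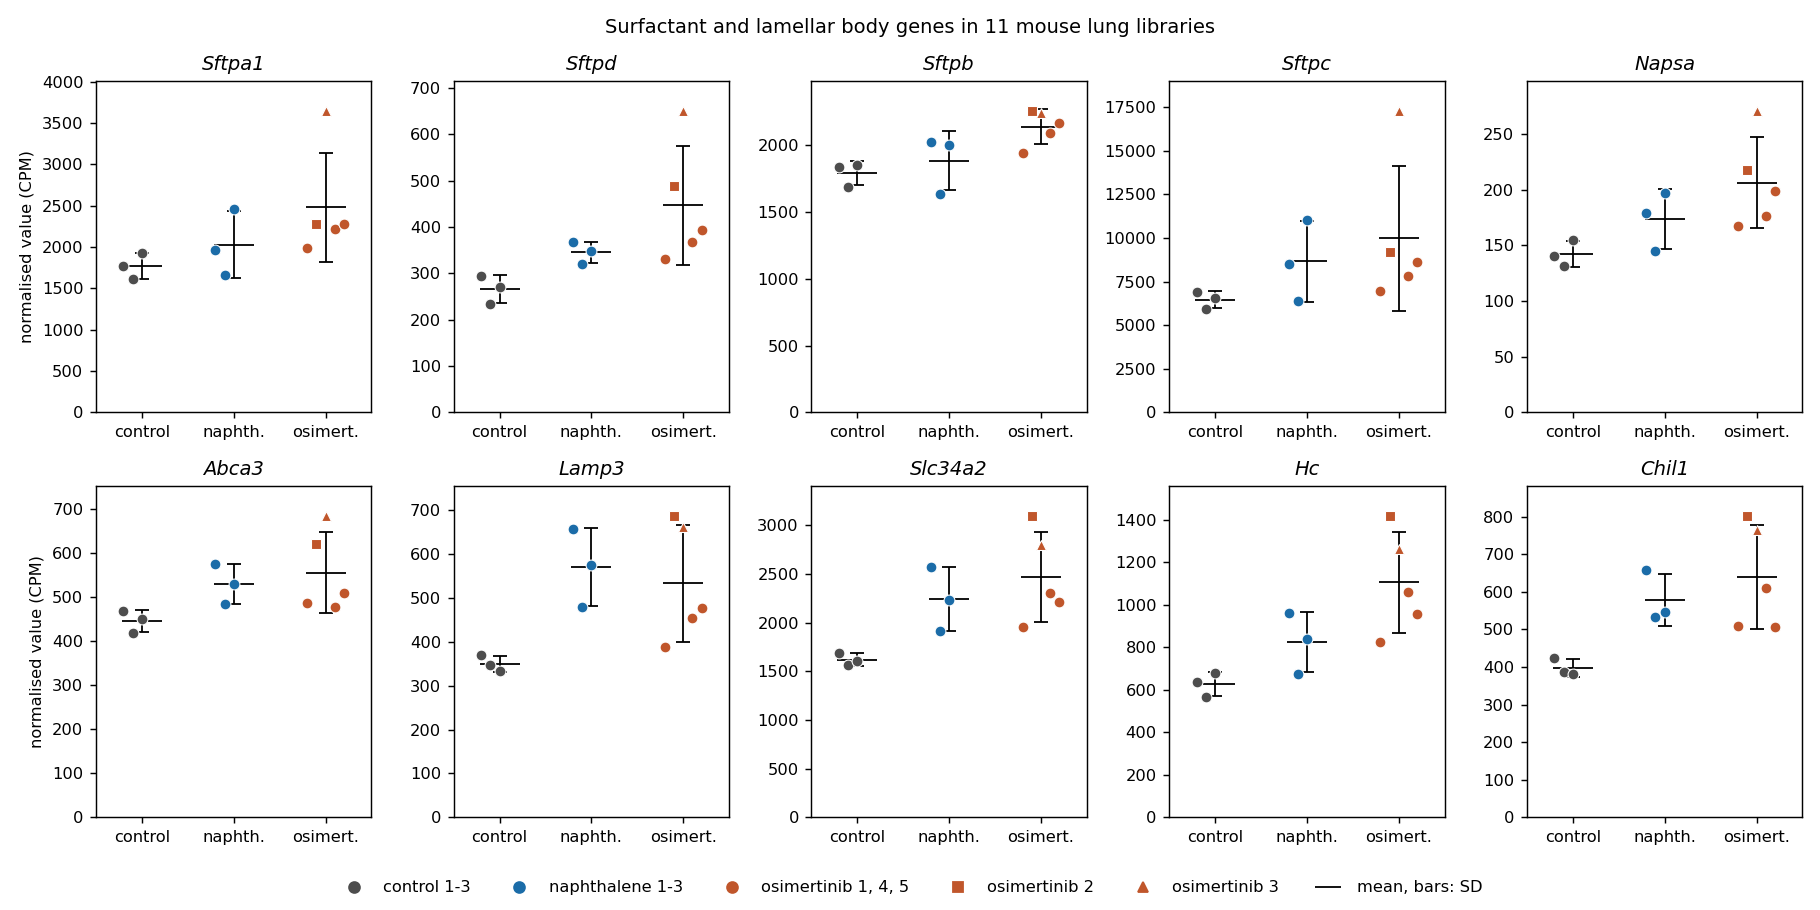
Normalised value (CPM, y axis from 0) of each of the 10 genes in each library, by group, where points are libraries, lines are group means and bars are SD (n = 3, 3 and 5). All 5 osimertinib libraries sit above all 3 control libraries for each gene on this deposited scale, and osimertinib 2 or osimertinib 3 is the highest of the 11 libraries for each gene.

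Sftpa1 encodes SP-A, the most abundant collectin of surfactant, and its normalised values were 1766, 1617 and 1929 in control 1 to 3, 1968, 1659 and 2458 in naphthalene 1 to 3, and 1988, 2284, 3643, 2222 and 2279 in osimertinib 1 to 5. On the deposited scale osimertinib 3 was far above the rest, the naphthalene values overlapped both other groups, and osimertinib and control did not overlap. By share of reads outside ENSMUSG00000119584, osimertinib 3 (40887 of 13006929) lay below osimertinib 4 (33417 of 9830914). The log2 difference was 0.46 (SE 0.23, limma adjusted p = 0.999) for osimertinib against control and 0.18 (SE 0.25, adjusted p = 0.937) for naphthalene against control. Without osimertinib 3 the first was 0.31. The second was 0.033 without naphthalene 3, 0.12 without control 2 and 0.32 without naphthalene 2.

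Sftpd encodes SP-D, the collectin that holds surfactant stores in balance, and lies beside Sftpa1 in the genome with the mannose-binding lectin gene Mbl1 between them. Its values were 294, 234 and 270.2 in control, 367, 321 and 347 in naphthalene, and 332, 488, 649.8, 368 and 394 in osimertinib 1 to 5. Both treated groups lay wholly above control and overlapped each other. The difference was 0.38 (SE 0.21, limma adjusted p = 0.744) for naphthalene against control and 0.71 (SE 0.19, adjusted p = 0.558) for osimertinib against control. The latter came to 0.56 without osimertinib 3. With DESeq2 on the recovered reads it passed (0.76, adjusted p = 0.0394), in a range of 0.0394 to 1.00 over 25 alternatives.

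Sftpb encodes SP-B, which packs the membranes of lamellar bodies, and its values were 1835, 1688 and 1848 in control, 2018, 1632 and 1997 in naphthalene, and 1936, 2251, 2238, 2091 and 2165 in osimertinib 1 to 5. It had the narrowest range of the 10 genes, 1.38-fold from lowest to highest library. Naphthalene 2 was the lowest of all, and osimertinib lay above control but overlapped naphthalene. The difference was 0.25 (SE 0.16, limma adjusted p = 0.999) for osimertinib against control and 0.07 (SE 0.18, adjusted p = 0.975) for naphthalene against control. The latter was 0.013 without naphthalene 1, 0.021 without naphthalene 3, 0.025 without control 2 and 0.17 without naphthalene 2.

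Sftpc encodes SP-C, a small lipopeptide made by type 2 cells, and had the widest range, 2.91-fold. Its values were 6921, 5939.6 and 6527 in control, 8522, 6402 and 11037 in naphthalene, and 6977, 9214, 17256, 7814 and 8628 in osimertinib 1 to 5. On the deposited scale a single library, osimertinib 3, held the top value, and the next highest was naphthalene 3, while osimertinib 1 lay just above control 1. By share of reads outside ENSMUSG00000119584, osimertinib 3 was still highest (193675 of 13006929). Naphthalene 3 (24050 of 2686323) then lay below control 1 (121812 of 11823095). The difference was 0.55 (SE 0.39, limma adjusted p = 0.999) for osimertinib against control and 0.33 without osimertinib 3. Against naphthalene it was 0.16 (SE 0.39, adjusted p = 0.913), −0.058 without osimertinib 3, −0.040 without naphthalene 2, 0.27 without osimertinib 1 and 0.35 without naphthalene 3.

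Napsa encodes napsin A, an aspartic protease of lamellar bodies that helps cut the SP-B precursor. Its values were 140.2, 132 and 155 in control, 179, 145 and 197 in naphthalene, and 168, 217, 271, 177 and 199 in osimertinib 1 to 5. Naphthalene overlapped both other groups. The difference between osimertinib and control was 0.52 (SE 0.15, limma adjusted p = 0.625), and 0.41 without osimertinib 3.

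Abca3 encodes the transporter that pumps phospholipid into lamellar bodies, and its values were 469.5, 419.5 and 449.6 in control, 576, 484 and 530.1 in naphthalene, and 488, 621, 684, 477 and 509 in osimertinib 1 to 5. The lowest treated library, osimertinib 4, was close to control 1. The difference was 0.25 (SE 0.15, limma adjusted p = 0.778) for naphthalene against control and 0.30 (SE 0.14, adjusted p = 0.999) for osimertinib against control. Without osimertinib 2 and 3 together the latter was 0.14.

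Lamp3 encodes a membrane glycoprotein of lamellar bodies, DC-LAMP, also made by mature dendritic cells. It was the 1 gene of the 10 with a lower mean in osimertinib than in naphthalene, and it had the largest difference between naphthalene and control. Values were 369.5, 347 and 334 in control, 657, 479 and 575 in naphthalene, and 387, 686, 661, 453 and 477 in osimertinib 1 to 5. The naphthalene libraries and osimertinib 2 and 3 held the top 5 places, above osimertinib 1, 4 and 5. The difference was 0.69 (SE 0.21, limma adjusted p = 0.491) for naphthalene against control, 0.57 (SE 0.19, adjusted p = 0.724) for osimertinib against control and −0.12 (SE 0.19, adjusted p = 0.858) for osimertinib against naphthalene. When the fit also held a term for the high read share, estimated from osimertinib 2 only, these were 0.19, 0.47 and 0.28. The difference between the treated groups was as small as −0.015 without naphthalene 1, −0.017 without osimertinib 1 and −0.073 without osimertinib 4. It was −0.24 without naphthalene 2, −0.22 without osimertinib 2 and −0.21 without osimertinib 3.

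Slc34a2 encodes the sodium-phosphate cotransporter NaPi-IIb, which takes back phosphate freed from surfactant lipid. Values were 1691, 1564 and 1602 in control, 2569.7, 1914 and 2232 in naphthalene, and 1951, 3092, 2798, 2301 and 2209.8 in osimertinib 1 to 5. Both treated groups lay above control, and the highest value was that of osimertinib 2. The difference was 0.46 (SE 0.22, limma adjusted p = 0.692) for naphthalene against control and 0.59 (SE 0.20, adjusted p = 0.761) for osimertinib against control. The latter passed with DESeq2 (0.63, adjusted p = 0.0364), in a range of 0.0364 to 1.00 over 25 alternatives. Of the other phosphate transporters, Slc20a1 was at 25.9 ± 1.50 in control, 27.0 ± 5.66 in naphthalene and 26.2 ± 0.730 in osimertinib, and Slc20a2 at 13.2 ± 0.685, 13.0 ± 4.57 and 11.9 ± 1.59 (SD, n = 3, 3 and 5).

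Hc encodes complement component C5, which mouse type 2 cells make beside the liver. It had the largest difference of the 10 between osimertinib and control in the fit of all libraries. Values were 638, 568 and 678 in control, 960.4, 676 and 838 in naphthalene, and 825, 1418, 1265, 1061 and 959 in osimertinib 1 to 5. Osimertinib lay wholly above control, and naphthalene 2 was level with control 3. The difference was 0.79 (SE 0.19, limma adjusted p = 0.392) for osimertinib against control, 0.41 (SE 0.19, adjusted p = 0.480) for osimertinib against naphthalene and 0.38 (SE 0.21, adjusted p = 0.740) for naphthalene against control. Without osimertinib 2 and 3 together the first was 0.59. DESeq2 called it (0.83, adjusted p = 0.00681), in a range of 0.00681 to 1.00 over 25 alternatives. Its receptor C5ar1 was at 9.59 ± 0.546 in control, 10.5 ± 2.88 in naphthalene and 12.5 ± 0.932 in osimertinib, and C3 was at 414 ± 55.6, 513 ± 83.9 and 558 ± 217 (SD, n = 3, 3 and 5).

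Chil1 encodes a chitinase-like lectin made by type 2 cells and by macrophages and neutrophils. Values were 424, 387 and 380.2 in control, 659, 533 and 546 in naphthalene, and 509.7, 802, 766, 610.2 and 508 in osimertinib 1 to 5. Both treated groups lay above control and overlapped each other. The difference was 0.54 (SE 0.19, limma adjusted p = 0.581) for naphthalene against control and 0.66 (SE 0.17, adjusted p = 0.496) for osimertinib against control. DESeq2 called the latter (0.70, adjusted p = 0.0263), in a range of 0.0263 to 1.00 over 25 alternatives. Chil3, a chitinase-like protein of alveolar macrophages, was at 278 ± 18.1 in control, 347 ± 85.5 in naphthalene and 503 ± 160.5 in osimertinib (SD, n = 3, 3 and 5).

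**Figure D2:**
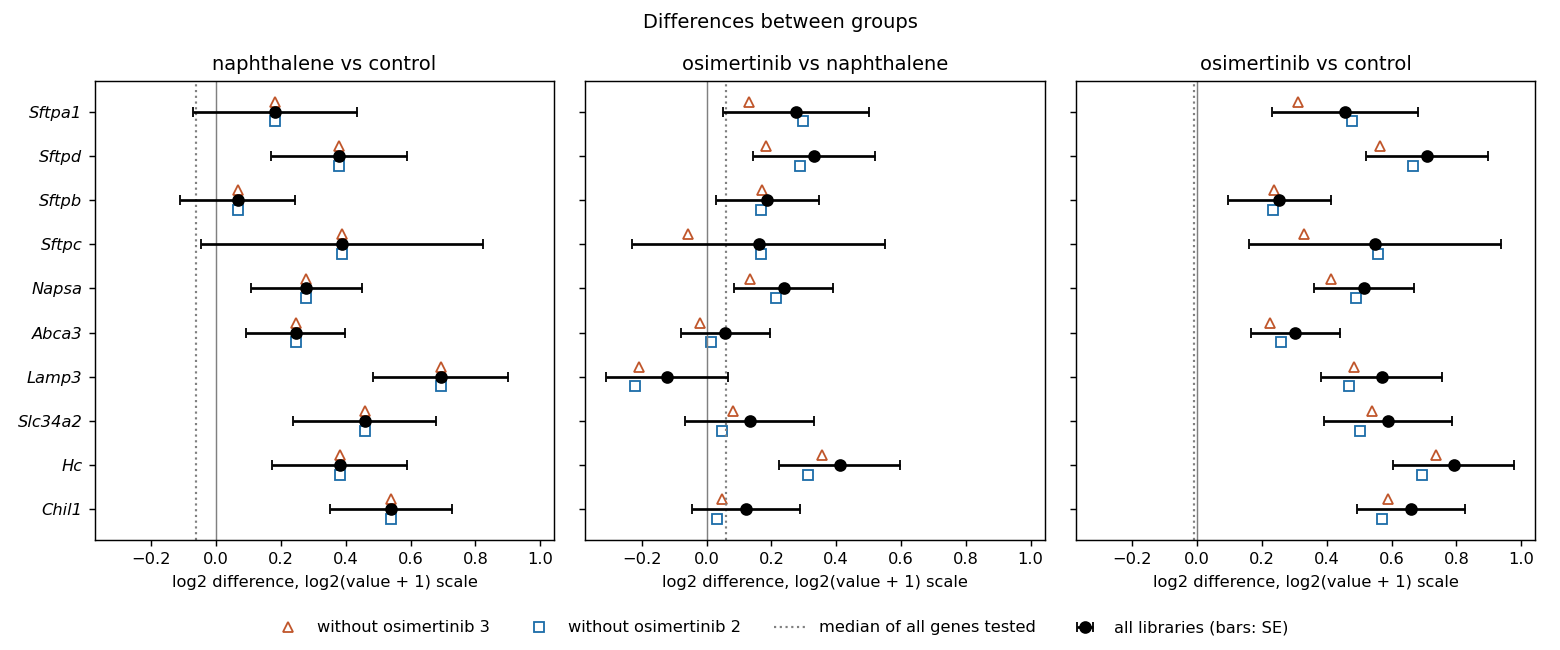
Log2 difference of each gene (x axis, log2(value + 1) scale) in each of the 3 comparisons, with bars for the SE over all libraries, open symbols for the value without osimertinib 2 or without osimertinib 3, and a dotted line for the median of all genes tested. On the deposited scale all 10 genes lie above 0 against control in both treated groups, while the osimertinib against naphthalene values lie between −0.12 and 0.41. Under equal library totals (not drawn) the naphthalene against control values all turn negative, with the median of all genes at −1.45.

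The direction against control depended on how libraries were scaled. As deposited, the median of the 10 was 0.38 (naphthalene over control), 0.17 (osimertinib over naphthalene) and 0.56 (osimertinib over control), beside −0.06, 0.06 and −0.01 for all 16225 genes. There 10, 9 and 10 of the 10 lay above 0, as did 38%, 60.5% and 48% of all genes. When all libraries were brought to 1 equal total, the median gene moved to −1.45, 1.10 and −0.34, and the median of the 10 to −1.18, 1.36 and 0.19. There 0, 10 and 8 of the 10 lay above 0, and 9, 9 and 10 lay above the median gene. With ENSMUSG00000119584 left out of the totals, the median gene lay at −0.47, 0.28 and −0.19, the median of the 10 at −0.07, 0.42 and 0.35. There 3, 10 and 10 of the 10 lay above 0, and 10, 9 and 10 above the median gene. With quantile normalisation 7, 7 and 9 of the 10 lay above 0.

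Reads of the 10 genes together made up 1.97% to 2.17% of each control library's reads outside ENSMUSG00000119584, 1.68% to 2.43% in naphthalene and 2.42% to 2.70% in osimertinib, so that osimertinib lay above control by this measure too. The highest was osimertinib 5 and the lowest naphthalene 3. Sftpc weighed most in this sum, with 121812 of the 256047 reads in control 1 and 193675 of the 339307 in osimertinib 3. Genes with few reads hardly count in it.

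Osimertinib 3 was, on the deposited scale, the highest of the 11 for 5 genes (Sftpa1, Sftpc, Sftpd, Napsa and Abca3) and osimertinib 2 for the other 5. Relative to the control mean, osimertinib 3 was at a log2 of 1.42 for Sftpc, 1.295 for Sftpd and 1.04 for Sftpa1, but at 0.32 for Sftpb. Osimertinib 2 was at 1.18 for Hc, 1.02 for Chil1, 0.97 for Lamp3 and 0.93 for Slc34a2, and at 0.33 for Sftpb. Osimertinib 1 lay between 0.11 and 0.40 and was the osimertinib library nearest to control for 8 of the 10 genes, all but Abca3 (osimertinib 4) and Chil1 (osimertinib 5). With osimertinib 2 and 3 left out, the median of the 10 was 0.33 for osimertinib against control, with all 10 still above 0, and 0.01 for osimertinib against naphthalene, with 5 above 0.

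**Figure D3:**
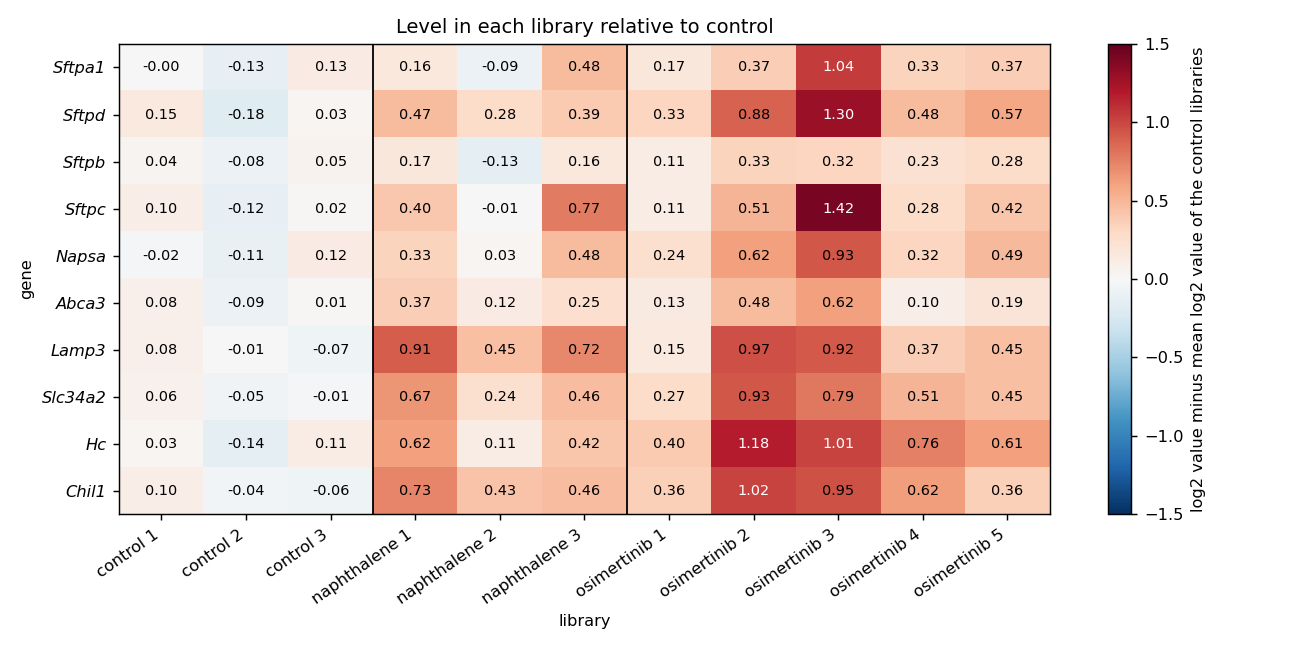
Log2 value of each gene (rows) in each library (columns) minus the mean log2 value of the 3 control libraries, on the deposited scale, with red for higher and blue for lower and the number in each cell. Sftpc reaches 1.42 in osimertinib 3, whereas Hc reaches 1.18 in osimertinib 2 and Sftpb stays at or below 0.33 in all libraries.

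A ratio between genes of the same library is not altered by any factor that rescales the whole library. Each gene was set against the mean log2 level of the other 9, and the groups were compared by an exact two-sided permutation test in 30 comparisons, of which 0 passed adjusted over the 30. With 3 against 3 libraries the smallest possible p is 0.1, and with 3 against 5 it is 0.0357. These floors keep every p adjusted over the 30 above the threshold, whatever the values. That 0 passed therefore cannot tell whether the ratios differ between groups. Sftpb was low relative to the others after both treatments: its log2 ratio was 1.42 ± 0.024 (SD, n = 3) in control, 1.09 ± 0.020 (SD, n = 3) in naphthalene and 1.10 ± 0.235 (SD, n = 5) in osimertinib. Neither treated group overlapped control (exact permutation p = 0.1 and 0.0357, adjusted p = 0.292 and 0.268). In osimertinib 1, 4 and 5 the ratio was 1.29, 1.23 and 1.26, between the control and naphthalene values, and in osimertinib 2 and 3 it was 0.977 and 0.744.

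Of the lamellar body genes, Lamp3 was at −1.20 ± 0.103 in control, −0.83 ± 0.095 in naphthalene and −1.16 ± 0.139 in osimertinib (SD, n = 3, 3 and 5). Its naphthalene libraries overlapped neither control (exact permutation p = 0.1, adjusted p = 0.292) nor osimertinib (exact permutation p = 0.0357, adjusted p = 0.268), though osimertinib 2 at −0.927 was close to naphthalene 3 at −0.909. Abca3 was at −0.81 ± 0.020, −0.94 ± 0.103 and −1.07 ± 0.095, and osimertinib was below control in 5 of 5 libraries (exact permutation p = 0.0357, adjusted p = 0.268). Naphthalene also lay wholly below control (exact permutation p = 0.1, adjusted p = 0.292), though only from −0.831 in control 3 to −0.835 in naphthalene 2. Hc was at −0.26 ± 0.079, −0.24 ± 0.109 and 0.02 ± 0.166, with osimertinib above control (exact permutation p = 0.0357, adjusted p = 0.268). The gap there was thin, from −0.172 in control 3 to −0.171 in osimertinib 3. Sftpc was at 3.47 ± 0.039, 3.51 ± 0.281 and 3.48 ± 0.311, but the osimertinib value rested on 1 library. Without osimertinib 3 it was 3.35 ± 0.098 (SD, n = 4), and the difference from control went from 0.0089 to −0.12.

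**Figure D4:**
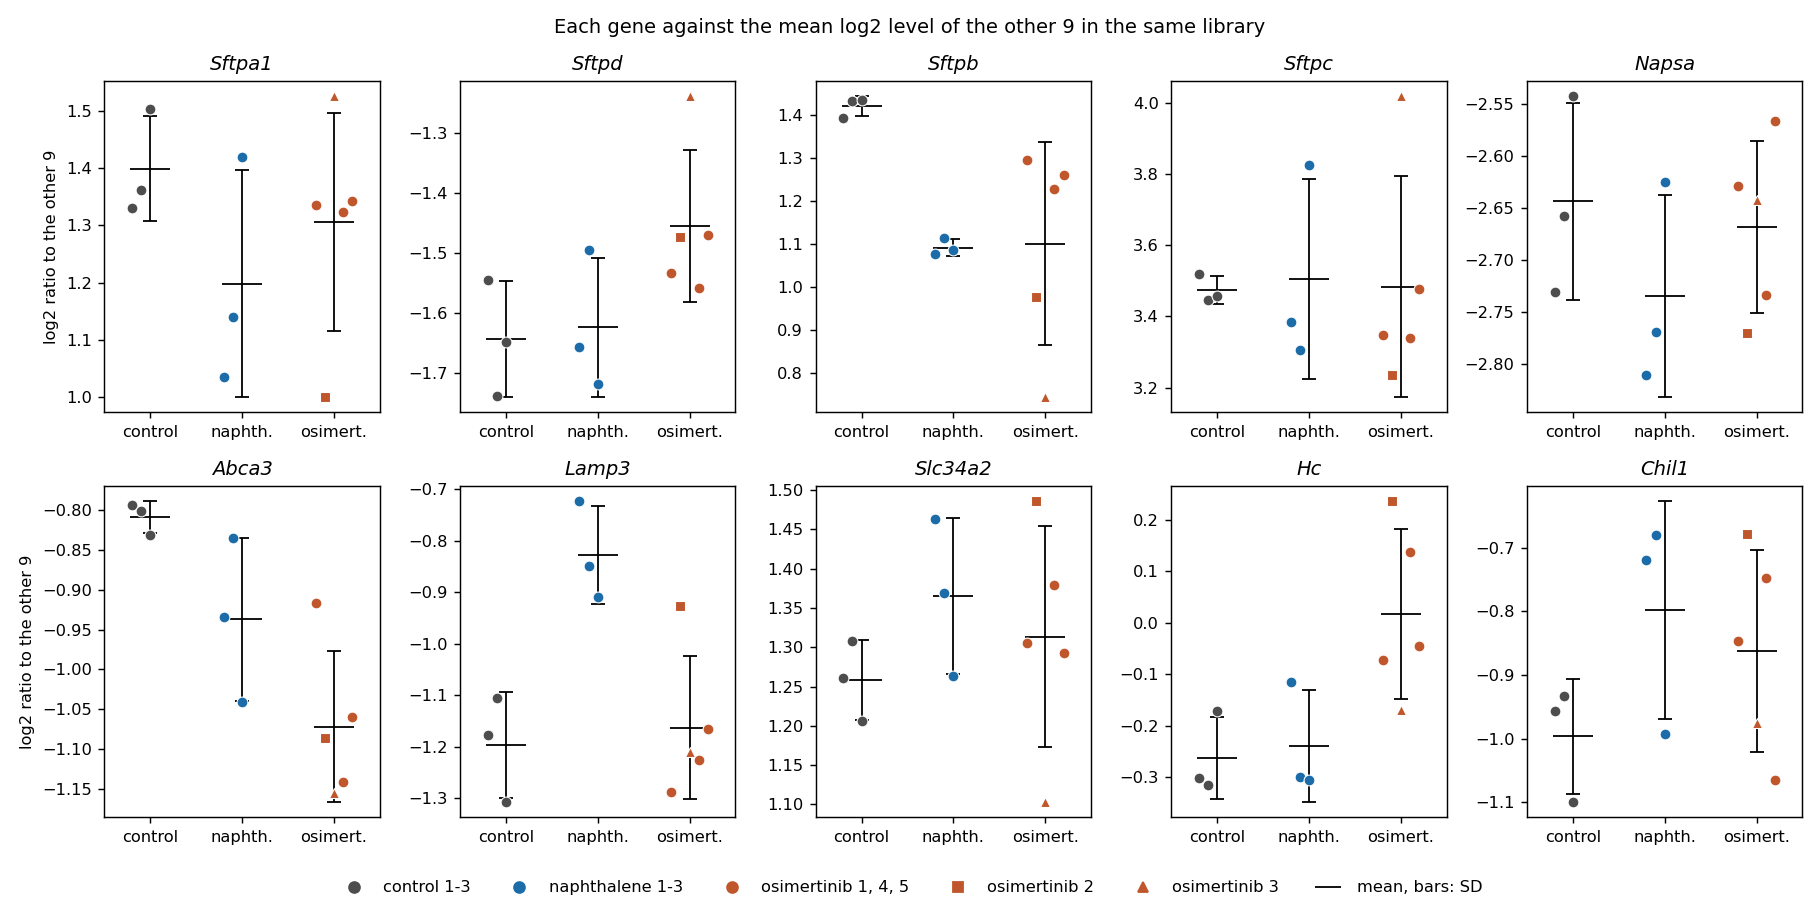
Log2 ratio of each gene to the mean log2 level of the other 9 genes in the same library (y axis, own range per panel), by group, where points are libraries, lines are means and bars are SD (n = 3, 3 and 5). Sftpb is at 1.39 to 1.43 in control and at 1.08 to 1.11 in naphthalene, and Lamp3 in naphthalene lies above control and osimertinib.

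Over the 11 libraries the log2 levels of the 10 genes varied together, with Pearson r from 0.63 (Sftpa1 and Lamp3) to 0.98 (Slc34a2 and Chil1). Values of a library share its scaling and depth, and these correlations are descriptions. The tightest pairs were Slc34a2 with Chil1 (0.97 without osimertinib 3), Sftpa1 with Sftpc (0.96, and 0.89 without osimertinib 3) and Slc34a2 with Hc (0.96 and 0.95). Sftpb was closest to Hc (0.92) and furthest from Lamp3 (0.66). Among 11685 other genes with a mean of at least 5, the pattern nearest to the mean of the 10 was that of Lrrk2, a kinase that type 2 cells express strongly (r = 0.99, and 0.98 without osimertinib 3). Next came Tlr4 (0.97), Mt2 (0.96), Atp6v0d2 (0.95), Ccdc141 (0.94), Fcgr2b (0.94), Nek6 (0.94) and Chil3 (0.94), of which Atp6v0d2, Fcgr2b and Chil3 are known from macrophages. Nearest to single genes were Adk to Sftpc (0.98), Hkdc1 to Slc34a2 (0.98), Uhrf1bp1l to Chil1 (0.98), Lrrk2 to Sftpd (0.97) and Ank3, another type 2 gene, to Hc (0.96).

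Transcripts of the 10 genes ran from 792 bases (Sftpc) to 6476 (Abca3). Their GC content ran from 38.7% in Lamp3, which had the largest naphthalene against control difference, to 58.1% in Sftpb, which had the smallest. Across the 10 genes the correlation of that difference with GC was −0.56, and across 16160 genes it was −0.19. With transcript length it was 0.11 and 0.04. Genes are not independent replicates, and the part of base composition in these differences was not tested.

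Related genes were described by list on the deposited scale alone. Of 18 other type 2 markers, 18 lay above 0 in both comparisons with control (medians 0.28 and 0.40) and 15 in osimertinib against naphthalene (0.14), and 0 passed in any. The chemokine Cxcl15 was at 758 ± 16.7 in control, 975 ± 86.3 in naphthalene and 1033 ± 330 in osimertinib (SD, n = 3, 3 and 5), and lysozyme 2 (Lyz2), shared with macrophages, at 2881 ± 247, 3703 ± 1168 and 4538 ± 2286. The alarmin Il33 was at 53.1 ± 6.40, 86.8 ± 29.0 and 116 ± 52.5. None of the 18 was at 0 in a library, so type 2 markers were present in all 11.

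Of 13 type 2 transcription factors tested, 8, 7 and 8 lay above 0 in the 3 comparisons, in the order used so far (medians 0.01, 0.01 and 0.04), and 0 passed. Nkx2-1, which drives the surfactant protein genes, was at 91.1 ± 1.00, 96.4 ± 2.44 and 97.4 ± 10.3 (SD, n = 3, 3 and 5). Cebpa was at 94.7 ± 6.83, 89.0 ± 16.6 and 98.6 ± 16.8, Foxa2 at 25.2 ± 3.61, 24.9 ± 2.69 and 25.4 ± 4.80, and Etv5, a target of FGF and ERK signalling, at 136 ± 6.92, 155 ± 22.4 and 165 ± 25.7. Of 20 genes of surfactant lipid synthesis 12, 7 and 13 lay above 0 (medians 0.11, −0.04 and 0.11), and 0 passed. Lpcat1, which makes the saturated phosphatidylcholine of surfactant, was at 280.2 ± 7.91, 326 ± 57.7 and 364 ± 44.2. Fasn was at 757 ± 193, 957 ± 190.0 and 1001 ± 178, Scd1 at 2502 ± 1222, 3039 ± 1758 and 3109.9 ± 1061, and Srebf1 at 88.4 ± 20.4, 72.5 ± 5.60 and 76.3 ± 4.94.

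Of 21 genes of protein processing and lamellar body traffic 11, 18 and 16 lay above 0 in the same order (medians 0.01, 0.15 and 0.12), and 0 passed. Ctsh, the protease that works with napsin A on SP-B, was at 121 ± 9.91, 151 ± 23.5 and 183 ± 77.7 (SD, n = 3, 3 and 5), and Adgrf5, the receptor that restrains surfactant pools, at 1106 ± 25.9, 1080.2 ± 20.5 and 1101 ± 115. Of 13 ER stress genes 4, 10 and 7 lay above 0 (medians −0.06, 0.12 and 0.04) and 0 passed, with the chaperone Hspa5 at 214 ± 28.3, 186 ± 36.3 and 209.7 ± 52.8.

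Alveolar type 1 genes, which mark the flat cells that type 2 cells give rise to, had medians of 0.09, −0.11 and −0.07 (11, 1 and 5 of 15 above 0, 0 passed), with Ager at 788 ± 32.4, 702 ± 80.2 and 698 ± 126 (SD, n = 3, 3 and 5) and Hopx at 285 ± 21.8, 276 ± 77.5 and 298 ± 102. Akap5 was at 439 ± 34.5, 465 ± 53.2 and 350 ± 93.1, and Pdpn at 79.0 ± 1.86, 86.0 ± 15.5 and 67.7 ± 13.0. Hopx was the 1 gene of the list above 0 in osimertinib against naphthalene. In naphthalene against control Ager and Hopx lay below 0, unlike most of the list. Genes of the transitional state between both cell types had medians of −0.05, 0.22 and 0.17 (5, 11 and 12 of 15 above 0, 0 passed), with Krt8 at 79.6 ± 11.1, 78.7 ± 11.4 and 86.8 ± 33.5. Ccn2 was at 47.3 ± 5.87, 38.2 ± 4.95 and 65.6 ± 12.4, and Cdkn1a at 27.5 ± 6.95, 23.5 ± 2.65 and 42.5 ± 8.93. Alveolar macrophages, which clear surfactant, had a list median of 0.01, 0.26 and 0.25 (11, 16 and 17 of 21 above 0, 0 passed), with the GM-CSF receptor subunit Csf2rb at 30.9 ± 2.50, 37.7 ± 13.5 and 47.7 ± 16.1 and Marco at 5.11 ± 0.217, 6.20 ± 1.96 and 4.22 ± 1.18. As deposited, the summed level of that list was 818 to 876 in control, 767 to 1191 in naphthalene and 965 to 1654 in osimertinib, with osimertinib 3 the highest. Over all genes the values of osimertinib 3 also summed higher, to 1159144, than those of osimertinib 1, 4 and 5 (642771 to 679607). Neutrophil genes summed to 83.5 to 124, 73.6 to 448 and 64.2 to 486, again highest in osimertinib 3, with Ly6g, Camp and Ngp at 0 in at least 1 library. The part of these cells in the values of Chil1, and of Sftpc and the other genes highest in osimertinib 3, was not tested.

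**Figure D5:**
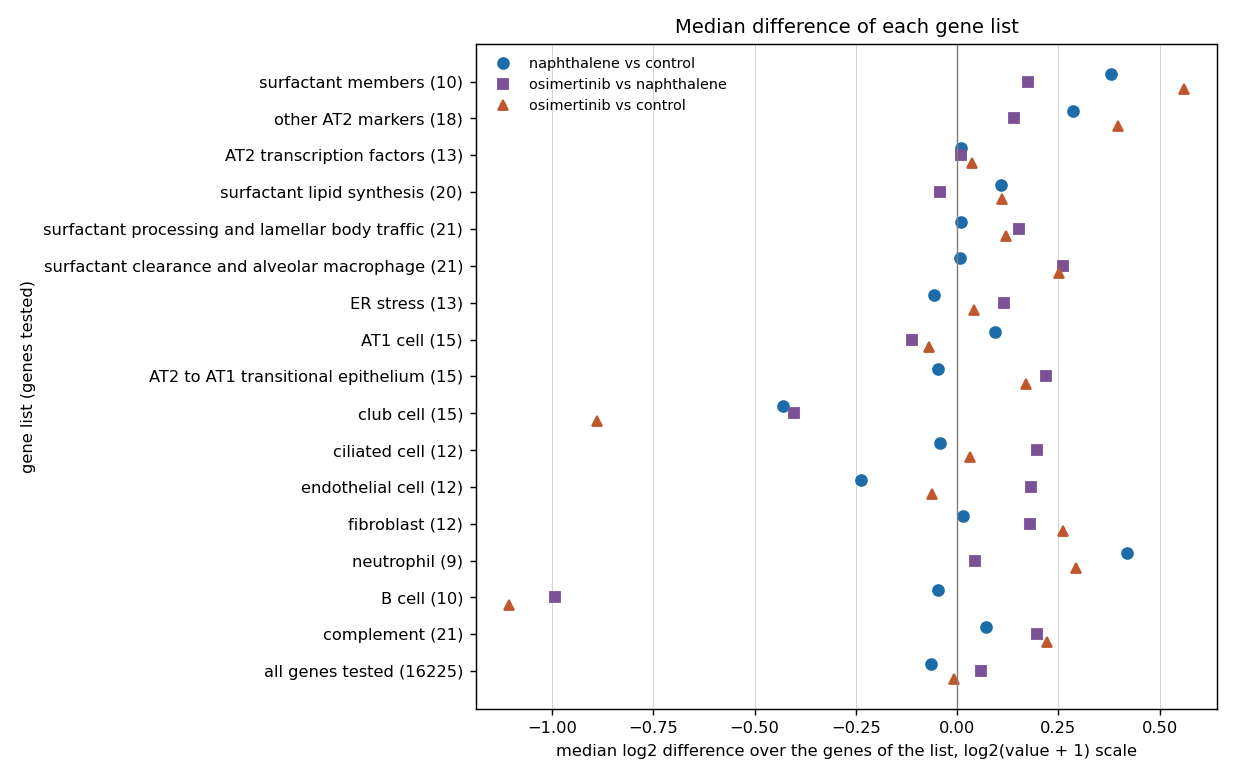
Median log2 difference (x axis, log2(value + 1) scale) over the tested genes of each list, with the number of genes in brackets, for the 3 comparisons on the deposited scale. The 10 surfactant genes have medians of 0.38, 0.17 and 0.56, beside −0.06, 0.06 and −0.01 for all genes and −0.43, −0.40 and −0.89 for club cell genes.

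In the airway, 12, 12 and 15 of 15 club cell genes lay below 0 (medians −0.43, −0.40 and −0.89, 0 passed), with Scgb1a1 at 11111 ± 1306 in control, 6615 ± 2339 in naphthalene and 4671 ± 2224 in osimertinib (SD, n = 3, 3 and 5). Medians of the other lists were −0.04, 0.20 and 0.03 for ciliated cells, −0.24, 0.18 and −0.06 for endothelial cells, 0.02, 0.18 and 0.26 for fibroblasts, 0.42, 0.04 and 0.29 for neutrophils, −0.05, −0.99 and −1.11 for B cells and 0.07, 0.20 and 0.22 for complement genes. In the small families, which hold Chil1 and Slc34a2 themselves, they were 0.17, 0.06 and 0.30 for 6 chitinase genes and 0.01, −0.02 and −0.01 for 4 phosphate transporters.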

How the data were processed

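The deposited table holds normalised values (unit signal) for 23255 genes in 11 libraries. Per the submitters' processing notes, Trimmomatic 0.38, RSEM 1.3.0, Bowtie2, edgeR and the build GRCm39 were used, with no roles given. The deposited signal equals CPM of a TMM-scaled library size to within 1.11e-15, and dividing by the value of 1 read gave whole reads for 100% of values (tolerance 0.01), so totals of 5045361 to 13009975 gene reads were recovered. The kit keeps strand; the strand setting of the counting is not given in the sources used here.

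Symbols came from a GENCODE M21 (GRCm38) table, which named 23123 IDs and left 132 unnamed. The 10 genes, the other lists and the tests were chosen with earlier results of these data known. Genes with a mean of at least 1 (16225) were fitted with limma 3.58.1 (R 4.3.3) on log2(value + 1) over all 3 groups, with Benjamini-Hochberg adjustment over all genes and a threshold of 0.05. Alternatives were count tests on the recovered reads (edgeR 4.0.16, DESeq2 1.42.0), other scalings, filters, pseudocounts and left-out libraries, and the fit was tested on simulated data. Named besides the 10 were the 2 genes of smallest unadjusted p in each list, fixed anchor genes, and the genes most like the 10 by Pearson r; of these, those bearing on the 10 are given. Transcript lengths and GC are of the longest coding transcript in GENCODE M21. The same-numbered naphthalene and osimertinib libraries deviated together (r = 0.122, 0.159 and 0.523) and met the rule set for pairing (each above 0.1), but the number itself did not single out 2 of the 3: naphthalene 1 was closer to osimertinib 4 (0.229), 2 (0.193) and 5 (0.134), and naphthalene 2 to osimertinib 4 (0.270). Numbers did not pair control with naphthalene (r = −0.064, 0.203 and −0.093) or with osimertinib (r = −0.038, 0.075 and −0.152). The labels give no pairing. Although the rule was met, the main fit held no term for it, and a replicate block was run as an alternative.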

Additional observations from a re-analysis of the deposited data

Results flagged for a closer look

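Chance flags about 1 in 20 separate sets, but the 20 sets tested here share the same 5 osimertinib libraries and are not separate. They were the value and the log2 ratio of each gene. In 3 of the 20 sets, 1 library lay farther from the rest than Dixon's critical value of 0.71 allows. All 3 were osimertinib 3, the library farthest out on the first principal component of all genes: Sftpa1 at a normalised value of 3643, Sftpc at 17256, and Sftpd at a log2 ratio of −1.24 to the other 9 genes. On the deposited scale alone, the same library had the highest summed macrophage (1654) and neutrophil (486) list levels of the 11. The Sftpa1 and Sftpc values are on the deposited scale. There all genes of osimertinib 3 summed to 1159144, against 642771 to 679607 in osimertinib 1, 4 and 5. By share of reads outside ENSMUSG00000119584, Sftpa1 was lower in osimertinib 3 (40887 of 13006929) than in osimertinib 4 (33417 of 9830914). Sftpc was still highest in osimertinib 3 (193675 of 13006929). Dixon's rule was not applied to these shares. The part of macrophages and neutrophils, and of the high sum over all genes, in the flagged values was not tested.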

How the results depend on the processing

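Of 750 values of the 10 genes under 25 alternatives in 3 comparisons, 699 kept direction and side of the threshold, 38 reversed and 13 gained a call without reversing. Some of the 38 gained a call too, all under equal library totals. These were 9 genes in naphthalene against control and Lamp3 in osimertinib against naphthalene. Under equal library totals, 16549 genes were tested. Those called were 15763 in naphthalene against control (15739 lower), 14420 in osimertinib against naphthalene (14396 higher) and 96 in osimertinib against control. Of the 10, 9 were called lower in the first and 10 higher in the second. Their medians were −1.18, 1.36 and 0.19, beside −1.45, 1.10 and −0.34 for all genes. The single values in the first were −1.38 (Sftpa1), −1.49 (Sftpb), −1.17 (Sftpc), −1.18 (Sftpd), −1.31 (Abca3), −0.87 (Lamp3), −1.27 (Napsa), −1.10 (Slc34a2), −1.18 (Hc) and −1.02 (Chil1). Lamp3 was at 1.06 in the second, and Sftpb at −0.12 and Abca3 at −0.070 in the third. Without the dominant gene in the totals, 7 genes were called in osimertinib against naphthalene and 0 in osimertinib against control, medians were −0.075, 0.42 and 0.35, and Sftpa1 (−0.28), Sftpb (−0.39), Sftpc (−0.068), Sftpd (−0.076), Abca3 (−0.21), Napsa (−0.18) and Hc (−0.074) reversed in naphthalene against control, as did Lamp3 (0.13) in osimertinib against naphthalene. Under quantile normalisation 1 gene was called in osimertinib against naphthalene, and Sftpa1 (−0.29), Sftpb (−0.41) and Sftpc (−1.55) reversed in naphthalene against control, Abca3 (−0.046) and Chil1 (−0.013) in osimertinib against naphthalene, and Sftpb (−0.026) in osimertinib against control. With a term for the high read share, 2 genes were called in each comparison, the naphthalene against control median was 0.13, and Sftpb (−0.030) and Hc (−0.10) reversed there and Lamp3 (0.28) in osimertinib against naphthalene. Without osimertinib 2 and 3 together, 38, 47 and 2 genes were called, the osimertinib against control median was 0.33, and Sftpc (−0.12), Abca3 (−0.11), Slc34a2 (−0.049) and Chil1 (−0.093) reversed against naphthalene. With only the groups compared, 21 genes were called in naphthalene against control and 1 in osimertinib against naphthalene. DESeq2 called 12, 33 and 78 genes, among them 4 of the 10 in osimertinib against control. Leaving out 1 library gave 0 to 12, 0 to 11 and 0 to 2 calls. The most came without osimertinib 2 in the first and second comparison, and without osimertinib 2 or osimertinib 3 in the third. In osimertinib against naphthalene Abca3 ranged from −0.021 to 0.12 and Sftpc from −0.058 to 0.35. With the replicate block, whose numbers are weak evidence of pairing, genes called in osimertinib against control went from 1 to 0, the medians of the 10 were 0.38, 0.26 and 0.67, and no other call changed. Equal library totals count the reads of ENSMUSG00000119584, 46.8% to 60.3% of each naphthalene library and at most 0.0252% of each control library. Leaving that gene out of the totals moved the median gene in naphthalene against control from −1.45 to −0.47. The causes of the other shifts were not tested. Depth was lowest in the 4 libraries with the high read share, at 2018541 to 2965328 reads outside that gene.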
